A study of Mus musculus with 7 samples.

Results

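This account follows 38 genes of myeloid cells and their signalling, from pan-myeloid markers, complement C1q and Fc receptors to the kinases, regulators of Rac and actin, and subunits of the phagocyte NADPH oxidase. They were taken as a list of symbols, and all 38 were found among the 40873 genes of the deposited count table. The table comes from RNA sequencing of the choroid plexus, the tissue that secretes cerebrospinal fluid, taken from the lateral ventricles of wild-type embryos of CD-1, an outbred mouse stock. One group was treated with red blood cells (RBC, 3 libraries), spun out of the blood of a litter of donors at E14.5 and washed in saline. The labels describe no separate step for the white cells of that blood. The other group was treated with saline (Saline, 4 libraries). Tissue of both groups was pooled at E15.5, 24 h after treatment, and all libraries carry batch 1. The labels do not say whether the pools come from separate litters, so a p-value here speaks of the spread among these 7 libraries alone. Total counts ran from 5479812 to 7944404 in the RBC libraries and from 4393860 to 8386928 in the saline libraries. RBC 2 and Saline 4 stand apart in several immune genes, and the log2 fold change without RBC 2 is given for each member tested that it moved by over 1.5 times.

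Macrophages of the choroid plexus sit in its stroma and on its epithelial surface, where they take up debris and red cells. They read antibody- or damage-coated particles through Fc receptors and related receptors that carry no catalytic domain of their own. These receptors pair with the adaptors encoded by Fcer1g and Tyrobp, whose tyrosine motifs (ITAMs) are phosphorylated by Src kinases such as Lyn and then bind the kinase Syk. Downstream, Vav1 and Dock2 load Rac GTPases with GTP, and Rac2 drives both actin assembly at the phagocytic cup and the NADPH oxidase, which makes superoxide in the phagosome. Several of these genes (Ptprc, Cd53, Cd52, Cd48, Vav1, Dock2, Rac2, Was, Coro1a and Ptpn6) are known from leukocytes in general, and Cyba, Lyn and Syk also from cells outside the blood lineages.

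The members were higher after red blood cells throughout, and most of them missed the threshold over all genes. Of the 38 members 35 had enough counts to be tested, and all 35 had a log2 fold change above 0, where 49.9% of the 14869 genes tested did. Their log2 fold changes ran from 0.54 for Lyn to 1.68 for Cd14, with a median of 1.04, against 0 for all genes tested. Adgre1 was the 1 member past the edgeR threshold over all genes (adjusted p under 0.05), in a comparison that called 0.0404% of genes as higher (0.0605% in both directions). At an unadjusted p under 0.05 there were 32 members, where 5.22% of all genes were higher with such a p. DESeq2 called 18 members as higher, where it called 1.1% of genes, and limma-voom called 0 (3 when libraries were weighted, where it called 0.269% of genes as higher). For 26 of the 35 members tested every RBC library lay above every saline library, as it did for 4.96% of all genes tested. The same held for the 3 members below the count filter. Of the 35 members 34 reached the count filter through saline libraries alone, the exception being Ncf4. Without a filter all 38 members were higher, with a median of 1.06.

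**Figure D1:**
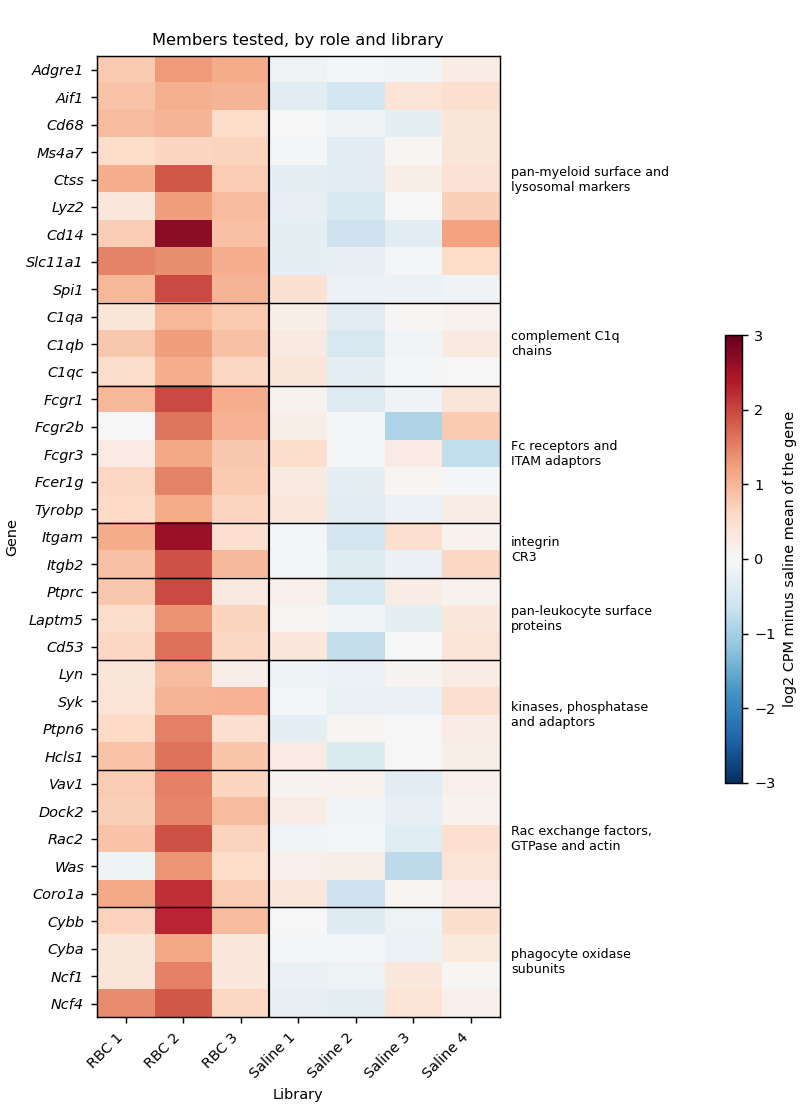
Heat map of the 35 members tested (rows, grouped by role) in the 3 RBC and 4 saline libraries (columns), coloured by the difference in log2 CPM from that gene's mean in Saline. Red prevails in the RBC columns and is deepest in RBC 2, where the median over members was 1.48, against 0.72 in RBC 1 and 0.77 in RBC 3.

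RBC 2 was the highest library for 34 of the 38 members, or 89.5%, where it was the highest for 18.2% of all genes tested. The summed CPM (a count scaled to a common library size, after TMM normalization) of the 38 members was 573, 1020 and 606 in RBC 1 to 3, against 374, 300, 352 and 448 in Saline 1 to 4. The lowest RBC library thus lay above the highest saline library, which was Saline 4. In bulk tissue more cells of a type and more RNA per cell cannot be told apart. Without RBC 2 all 35 members tested were still higher, with a median log2 fold change of 0.74, where 49.9% of all genes were higher in the same fit. Without both RBC 2 and Saline 4 the median was 0.90.

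Among the pan-myeloid markers Adgre1, which encodes the macrophage surface receptor F4/80, rose. It had 22, 31.0 and 27.9 CPM in RBC 1 to 3, against 11.7, 12.4, 12 and 14.8 CPM in Saline 1 to 4. The groups did not overlap, and the 3 RBC libraries were close to each other. The log2 fold change was 1.09 ± 0.15 (SE, n = 3 and n = 4, edgeR adjusted p = 0.0280), and 0.98 ± 0.16 without RBC 2 (edgeR adjusted p = 0.0371). Its call was lost without Saline 1, 2 or 3 (edgeR adjusted p = 0.132, 0.172 and 0.171). On GRCm39 the gene spans 57665581 to 57790529 of chromosome 17, on the plus strand.

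Slc11a1, a metal ion transporter of the phagosome membrane, came next by p-value. It had 15.9, 15 and 12.1 CPM in RBC 1 to 3, against 4.58, 4.65, 5.26 and 8.34 CPM in Saline 1 to 4. Here RBC 1 was the highest library, and Saline 4 the highest of its group. At 1.36 ± 0.22 on the log2 scale it missed the threshold (SE, edgeR adjusted p = 0.0608), and it passed without Saline 4 (edgeR adjusted p = 0.0313) and without both RBC 2 and Saline 4 (edgeR adjusted p = 0.0125). It lay further from the threshold without Saline 1, 2 or 3 (edgeR adjusted p = 0.183, 0.204 and 0.248) and without RBC 2 (edgeR adjusted p = 0.0746). Over the 17 alternatives run it passed in 6.

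Lysozyme and cathepsin S, which degrade engulfed material, were the most abundant markers of this group per exon length. Lyz2 had 43.1, 81.4 and 66.4 CPM in RBC 1 to 3, against 28.5, 24.7, 33.7 and 55.8 CPM in Saline 1 to 4. Saline 4 exceeded RBC 1, so the groups overlapped (log2 fold change 0.85 ± 0.34, SE, edgeR adjusted p = 0.502). Its level is uncertain in so far as reads are shared with its near-identical neighbour Lyz1. Ctss had 36.7, 62.9 and 29.3 CPM in RBC 1 to 3, against 13.9, 13.3, 19.7 and 23.4 CPM in Saline 1 to 4. Those groups did not overlap, and the log2 fold change was 1.30 ± 0.31 (SE, edgeR adjusted p = 0.196), or 0.93 ± 0.22 without RBC 2.

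The myeloid transcription factor PU.1, encoded by Spi1, and the endotoxin co-receptor gene Cd14 were both highest in RBC 2, but differed in how far they rested on it. Spi1 had 8.79, 17.7 and 8.87 CPM in RBC 1 to 3, against 5.91, 3.69, 3.71 and 3.94 CPM in Saline 1 to 4. RBC 2 held about as much Spi1 as RBC 1 and RBC 3 together, and Saline 1 was the highest of its group. The groups did not overlap and differed by 1.44 ± 0.29 on the log2 scale (SE, edgeR adjusted p = 0.104), or 1.03 ± 0.26 without RBC 2. Cd14 had 6.28, 25.1 and 6.88 CPM in RBC 1 to 3, against 2.96, 2.25, 2.87 and 8.80 CPM in Saline 1 to 4. Saline 4 exceeded RBC 1 and RBC 3, and the log2 fold change of 1.68 ± 0.70 came down to 0.71 ± 0.49 without RBC 2. Cd68, a lysosomal glycoprotein (0.87 ± 0.18), Aif1, an actin-binding protein known as Iba1 (0.97 ± 0.28), and Ms4a7, a membrane protein of macrophages (0.69 ± 0.31), also did not overlap between groups, and RBC 2 held 1.19, 1.09 and 1.04 times the mean of the other RBC libraries for these genes, in that order.

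The chains of C1q, which opens the classical complement pathway and coats debris for uptake, had matching patterns. C1qa, C1qb and C1qc lie side by side between 136607437 and 136626155 of chromosome 4 on GRCm39. C1qa had 31.3, 48.6 and 42.2 CPM in RBC 1 to 3, against 27.9, 19.3, 24.8 and 25.9 CPM in Saline 1 to 4. C1qb had 34.4, 47.0 and 36.6 CPM, against 23.8, 14, 18.4 and 23.9 CPM. C1qc had 32.4, 47.8 and 34.6 CPM, against 29.0, 18.3, 21.4 and 22 CPM. In each chain RBC 2 was the highest and Saline 2 the lowest library, and the groups did not overlap. The log2 fold changes were 0.73 ± 0.16, 0.98 ± 0.19 and 0.75 ± 0.17 (SE, edgeR adjusted p = 0.136, 0.104 and 0.138), all below the median of the members. Per kilobase of exon the levels were also alike, at 37.6, 35.6 and 34.1 CPM in the RBC group, against 22.6, 18.1 and 20.2 CPM in the saline group.

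Promoters were examined because many members are known targets of PU.1. RefSeq (GRCm38.p6, a build other than that of the counts) gave a promoter for 28 of the 38 members, and the 250 bases before the annotated start were searched on both strands. The sequences shown hold the last 120 bases before the start, 5′ to 3′ on the strand of the gene, with the purine-rich core GAGGAA or its reverse complement TTCCTC in capitals. They cover a C1q chain, an Fc receptor, an integrin chain, a Rac exchange factor and, with no match in this window, the catalytic oxidase subunit.
C1qb, chr4:136886201-136886320, minus strand: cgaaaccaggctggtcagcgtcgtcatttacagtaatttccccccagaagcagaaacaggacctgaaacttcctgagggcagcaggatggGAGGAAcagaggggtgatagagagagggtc
Fcgr1, chr3:96293970-96294089, minus strand: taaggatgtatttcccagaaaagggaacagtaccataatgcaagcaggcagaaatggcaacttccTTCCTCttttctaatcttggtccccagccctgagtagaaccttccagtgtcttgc
Itgam, chr7:128062520-128062639, plus strand: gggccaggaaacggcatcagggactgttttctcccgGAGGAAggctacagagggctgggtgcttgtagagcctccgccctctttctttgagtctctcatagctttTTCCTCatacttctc
Vav1, chr17:57278980-57279099, plus strand: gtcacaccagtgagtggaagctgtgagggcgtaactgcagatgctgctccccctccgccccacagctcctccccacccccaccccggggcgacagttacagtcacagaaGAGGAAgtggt
Cybb, chrX:9469325-9469444, minus strand: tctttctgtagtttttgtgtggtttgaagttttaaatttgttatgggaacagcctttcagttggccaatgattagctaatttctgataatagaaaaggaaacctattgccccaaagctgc

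The core GAGGAA began 30 bases before the start of C1qb, 55 before that of Fcgr1, 11 before that of Vav1, and 84 and 15 before that of Itgam. It occurred in 17 of the 33 promoters of members (51.5%), and in 23.3% of all 32851 promoters. The 17 belong to 16 of the 28 members with a promoter, as overlapping promoters of Fcgr3 share a match. The longer GAGGAAG occurred in 27.3% of member promoters and 10.6% of all, and GAGGAAGT, which contains it, in 9.09% and 2.44%. The shifted motif AGGAAGT, which overlaps these, occurred in 33.3% and 7.69%, and GGAAGTG in 12.1% and 8.55%. For comparison, the motif TATAAA of core promoters occurred in 12.1% of member promoters and 12.4% of all. These are matches of letters, not sites shown to be bound, and some members have more than 1 promoter. The members were listed as myeloid genes, so the shares describe that list and not the difference between treatments.

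The receptors for the constant part of immunoglobulin G and their adaptors followed the same direction. Fcgr1, the high-affinity activating receptor, had 10.8, 21.8 and 11.6 CPM in RBC 1 to 3, against 5.76, 4.01, 4.90 and 6.95 CPM in Saline 1 to 4. No saline library reached the RBC libraries (log2 fold change 1.46 ± 0.27, SE, edgeR adjusted p = 0.0952, and 1.06 ± 0.24 without RBC 2). Fcer1g, the shared gamma chain, had 9.79, 18.2 and 11 CPM in RBC 1 to 3, against 7.68, 5.13, 6.58 and 6.02 CPM in Saline 1 to 4. Tyrobp, which encodes the adaptor DAP12, had 14.9, 21.3 and 15.4 CPM, against 12.1, 7.54, 8.61 and 11.3 CPM. The groups did not overlap for either adaptor, with log2 fold changes of 1.02 ± 0.24 and 0.80 ± 0.20 (SE, edgeR adjusted p = 0.136 and 0.141). Per kilobase of exon the adaptors stood above the receptors, with 29.9 CPM for Tyrobp and 19.8 CPM for Fcer1g in the RBC group, against 17.2 and 9.66 CPM in the saline group, where Fcgr1 had 5.69 CPM in the RBC group and 2.09 CPM in the saline group.

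The low-affinity receptor genes lie between 170786186 and 170893477 of chromosome 1 on GRCm39, and for Fcgr3 and Fcgr2b the groups overlapped. Fcgr3, an activating receptor, had 10.8, 20.4 and 15.9 CPM in RBC 1 to 3, against 13.2, 8.66, 10.8 and 5.33 CPM in Saline 1 to 4, so that Saline 1 exceeded RBC 1. Fcgr2b, the inhibitory receptor, had 1.88, 6.35 and 4.16 CPM, against 2.22, 1.76, 0.837 and 3.47 CPM, with an overlap at RBC 1. Their log2 fold changes were 0.70 ± 0.29 and 1.05 ± 0.49 (SE, edgeR adjusted p = 0.475 and 0.549), or 0.45 ± 0.30 and 0.58 ± 0.52 without RBC 2. Without both RBC 2 and Saline 4 that of Fcgr3 was 0.29 ± 0.24. Fcgr4, a further activating receptor, was below the count filter, with 14, 21 and 4 counts in RBC 1 to 3, against 2, 2, 4 and 2 counts in Saline 1 to 4. On the CPM scale its groups did not overlap, at 1.76, 3.18 and 0.724 CPM in RBC 1 to 3, against 0.296 to 0.478 CPM in the saline libraries. These receptors resemble each other in sequence, so their separate counts are uncertain in so far as reads are shared.

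CR3, the integrin that binds complement-coated particles, is made of the chains encoded by Itgam (CD11b) and Itgb2 (CD18). Itgam had 15.3, 43.4 and 9.78 CPM in RBC 1 to 3, against 6.65, 4.65, 9.81 and 7.41 CPM in Saline 1 to 4. RBC 2 held 3.46 times the mean of the other RBC libraries, and Saline 3 lay just above RBC 3. The log2 fold change was 1.67 ± 0.56 (SE, edgeR adjusted p = 0.387), and 0.82 ± 0.28 without RBC 2. Itgb2 averaged 9.62 ± 4.25 CPM (SD) in the RBC group and 3.79 ± 1.37 CPM (SD) in the saline group, with no overlap (1.38 ± 0.33, SE, edgeR adjusted p = 0.138).

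**Figure D2:**
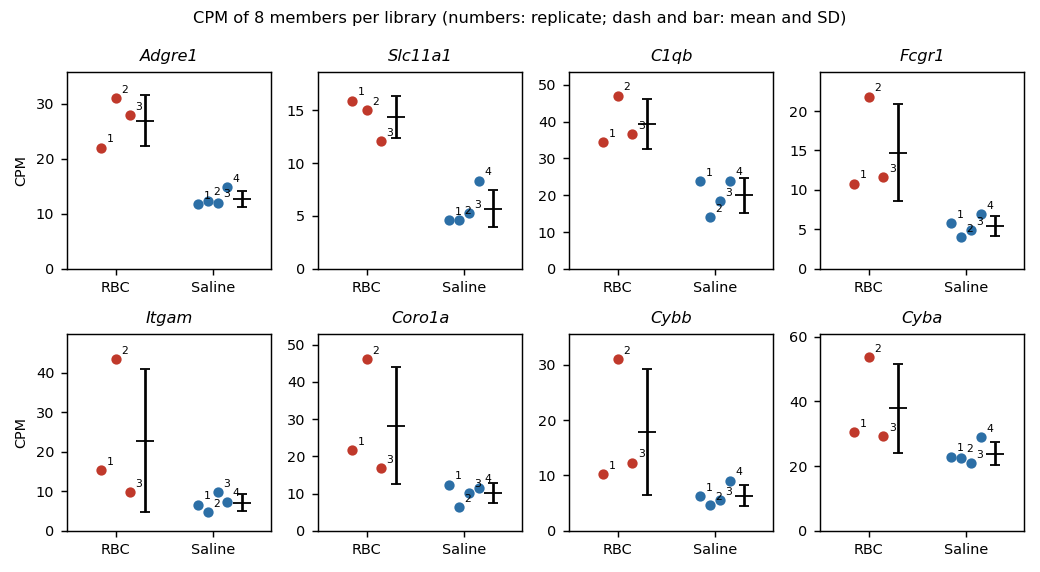
CPM (y axis, from 0) of 8 members in the 3 RBC and 4 saline libraries, with replicate numbers beside the points and the mean ± SD as a dash and bar. Adgre1 and Slc11a1 sat close together within the RBC group, while RBC 2 reached 43.4 CPM for Itgam, 46.1 for Coro1a and 31.0 for Cybb.

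The pan-leukocyte surface proteins were led by Laptm5, a lysosomal membrane protein that dampens receptor signalling. It had 40.9, 72.4 and 44.9 CPM in RBC 1 to 3, against 29.6, 26.6, 23.2 and 35.4 CPM in Saline 1 to 4. The groups did not overlap (log2 fold change 0.89 ± 0.22, SE, edgeR adjusted p = 0.196, and 0.59 ± 0.15 without RBC 2). Ptprc, the CD45 phosphatase that acts on Src kinases, had 10.8, 24.4 and 7.24 CPM, against 6.65, 4.17, 7.06 and 6.49 CPM. RBC 3 was hardly above Saline 3, and the log2 fold change of 1.21 ± 0.40 came to 0.58 ± 0.26 without RBC 2. Cd53, a tetraspanin, had 1.04 ± 0.33, or 0.61 ± 0.28 without RBC 2. Cd52 and Cd48, small lipid-anchored surface proteins, were below the count filter. Cd52 had 16, 51 and 8 counts in RBC 1 to 3, against 3, 5, 7 and 5 in Saline 1 to 4, and Cd48 had 9, 12 and 14 counts, against 2, 2, 5 and 3. On the CPM scale neither overlapped, and Cd52 had the steepest excess of RBC 2 over the other RBC libraries of any member, at 4.46 times, where Cd48 had 0.99 times.

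Of the kinases, Lyn had the smallest difference of the members tested. It had 31.3, 47.0 and 27.7 CPM in RBC 1 to 3, against 21.9, 21.3, 25.7 and 28.5 CPM in Saline 1 to 4, and Saline 4 exceeded RBC 3. The log2 fold change was 0.54 ± 0.18 (SE, edgeR adjusted p = 0.298), or 0.29 ± 0.14 without RBC 2. Syk had 12.1, 18.6 and 19.0 CPM, against 8.72, 7.70, 7.78 and 12.7 CPM, with Saline 4 above RBC 1 (0.86 ± 0.22, SE, edgeR adjusted p = 0.155). Hcls1, an actin-binding substrate of these kinases, had 12.4, 21.6 and 12.3 CPM, against 8.13, 4.97, 6.82 and 7.64 CPM. It did not overlap between groups (1.17 ± 0.24, SE, edgeR adjusted p = 0.104). Ptpn6, the phosphatase SHP-1 that opposes ITAM signalling, had 0.97 ± 0.25, or 0.57 ± 0.19 without RBC 2, and did not overlap either.

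Regulators of Rac and actin formed the next step. Coro1a, an actin-binding protein of the phagosome, had 21.7, 46.1 and 16.8 CPM in RBC 1 to 3, against 12.4, 6.26, 10.2 and 11.6 CPM in Saline 1 to 4. Its log2 fold change was 1.49 ± 0.39 (SE, edgeR adjusted p = 0.236), and 0.94 ± 0.24 without RBC 2. Dock2, a Rac exchange factor of leukocytes, had 8.66, 14.8 and 10.3 CPM, against 6.06, 4.81, 4.31 and 5.56 CPM (1.12 ± 0.23, SE, edgeR adjusted p = 0.104). Rac2, the leukocyte Rac GTPase, had 10.2, 21.5 and 8.87 CPM, against 5.17, 5.29, 4.19 and 7.87 CPM (1.29 ± 0.33, SE, edgeR adjusted p = 0.176, and 0.79 ± 0.26 without RBC 2). None of these 3 genes overlapped between groups, and neither did the exchange factor gene Vav1 (1.07 ± 0.26). Was, which activates branched actin assembly, had 2.64, 7.71 and 4.35 CPM, against 3.25, 3.37, 1.56 and 3.94 CPM. RBC 1 lay below 3 of the 4 saline libraries, and without RBC 2 the log2 fold change was 0.22 ± 0.41.

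In the phagocyte oxidase the membrane subunits carry the electrons and the cytosolic ones switch them on. Cybb, the catalytic subunit (NOX2), had 10.2, 31.0 and 12.3 CPM in RBC 1 to 3, against 6.21, 4.65, 5.5 and 9.03 CPM in Saline 1 to 4. The groups did not overlap, but the difference of 1.51 ± 0.43 on the log2 scale (SE, edgeR adjusted p = 0.255) came to 0.84 ± 0.25 without RBC 2. Its membrane partner Cyba had 30.5, 53.7 and 29.3 CPM, against 22.9, 22.6, 20.9 and 29.0 CPM, with Saline 4 just below RBC 3 (0.68 ± 0.22, SE, edgeR adjusted p = 0.307, and 0.34 ± 0.14 without RBC 2). Per kilobase of exon Cyba stood at 49.9 CPM in the RBC group and 31.4 CPM in the saline group, where Cybb stood at 3.71 and 1.32 CPM. The excess of Cyba over Cybb was thus present after both treatments.

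The cytosolic subunits differed from each other. Ncf1, the organising subunit, had 11, 25.1 and 10.7 CPM in RBC 1 to 3, against 7.39, 7.70, 10.8 and 8.80 CPM in Saline 1 to 4. Saline 3 lay at the level of RBC 1 and RBC 3, and the difference of 0.84 ± 0.31 on the log2 scale (SE, edgeR adjusted p = 0.383) came to 0.32 ± 0.21 without RBC 2. Ncf4, which binds phosphoinositide on the phagosome, had 4.90, 6.81 and 2.72 CPM, against 1.33, 1.28, 2.27 and 1.85 CPM. It did not overlap (1.5 ± 0.36, SE, edgeR adjusted p = 0.138), and rested on 99 counts in the RBC group and 44 in the saline group.

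**Figure D3:**
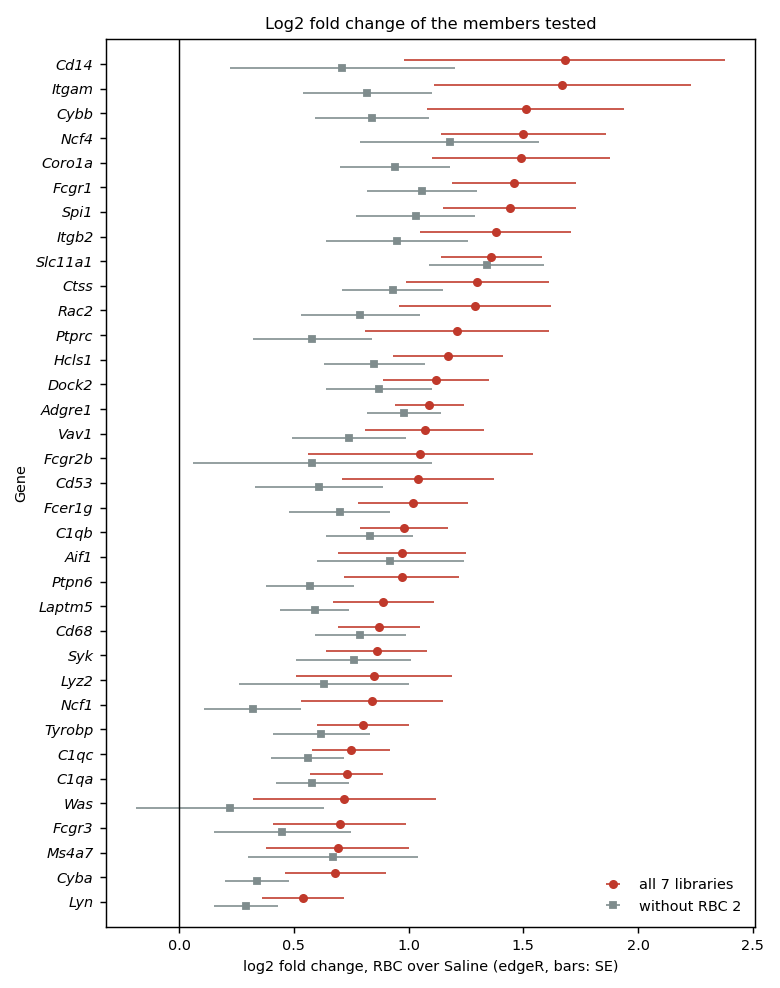
Log2 fold change of RBC over Saline (x axis, bars are SE) of the 35 members tested, with all 7 libraries (red circles) and without RBC 2 (grey squares). Without RBC 2 all 35 stay above 0, and the shift is widest for Cd14 (1.68 and 0.71) and Itgam (1.67 and 0.82), where Slc11a1 (1.36 and 1.34) hardly moves.

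Other genes of these pathways were listed apart from the members. In a list of 13 further NADPH oxidase genes 8 could be tested, 6 of them higher and 2 lower, with a median log2 fold change of 0.24. In edgeR 0 passed over all genes (unadjusted p under 0.05 in 2 of them), and 0 passed in DESeq2 or in limma-voom. Prkcd, a kinase that phosphorylates the cytosolic subunits, had a log2 fold change of 0.31 ± 0.10 (SE). The widely used Rac1 and Rap1a, the most abundant of the list per exon length, had 0.04 ± 0.06 and 0.16 ± 0.12. Nox1, Nox3, Duox1 and Duox2, catalytic subunits of other oxidases, each held at most 6 counts in any library. Nox4, a further catalytic subunit, held 9 to 23 counts per library and had a log2 fold change of -0.07 ± 0.37 (SE).

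Among 22 further genes of ITAM and Fc receptor signalling 19 of the 21 tested were higher, with a median of 0.43. In edgeR 0 passed (unadjusted p under 0.05 in 11 of them), where DESeq2 called 3 and limma-voom 0. Lcp2, the scaffold SLP-76, had 59, 94 and 39 counts in RBC 1 to 3, against 33, 17, 33 and 13 in Saline 1 to 4, and a log2 fold change of 1.37 ± 0.30 (SE). The ubiquitous adaptor gene Grb2 had 0.05 ± 0.07, and Bcl10, a link to NF-kB, had 0.25 ± 0.11. Inhibitory receptors and phosphatases were higher for 9 of 9 genes tested, with a median of 0.47. In edgeR 0 passed (unadjusted p under 0.05 in 4 of them), where DESeq2 called 1 and limma-voom 0. Lilrb4a, an inhibitory receptor of myeloid cells, had 172, 145 and 59 counts in RBC 1 to 3, against 17, 6, 36 and 25 in Saline 1 to 4. Its groups did not overlap, and its log2 fold change was 2.45 ± 0.48 (SE, edgeR adjusted p = 0.136). Cd300a, another inhibitory receptor, had 0.75 ± 0.23, where Ptpn11 and Sirpa, abundant in the tissue, had 0.02 ± 0.06 and 0.13 ± 0.09.

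Leukocyte actin and integrin regulators came closest to the members, with 19 of 20 genes higher and a median of 0.84. In edgeR 0 passed (unadjusted p under 0.05 in 13 of them), where DESeq2 called 9 and limma-voom 0. Fyb, an adaptor between receptors and integrins, had 113, 203 and 96 counts in RBC 1 to 3, against 56, 45, 59 and 38 in Saline 1 to 4 (log2 fold change 1.41 ± 0.25, SE, edgeR adjusted p = 0.0809). Myo1f, a leukocyte myosin, had 1.2 ± 0.22. Arhgdib, which holds small GTPases inactive, had 597, 1131 and 246 counts, against 184, 177, 258 and 99 (1.82 ± 0.48), and Arpc1b, a subunit of the Arp2/3 complex, had 0.53 ± 0.16. Without RBC 2 the oxidase list had 5 of 8 genes higher and a median of 0.09, and the ITAM list 17 of 20 and 0.29. The inhibitory list had 7 of 9 higher and a median of 0.11, and the actin and integrin list 17 of 20 and 0.43.

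Markers of other blood cells were measured because several members are shared between leukocytes. Over 14 resident macrophage markers the summed CPM was 715, 929 and 855 in RBC 1 to 3, against 683, 552, 672 and 600 in Saline 1 to 4, and 13 of 13 genes tested were higher, with a median log2 fold change of 0.41. Without RBC 2 this came to 11 of 13 and 0.35. Over 12 neutrophil markers it was 15.2, 97.6 and 24.3 CPM in RBC 1 to 3, against 30, 12, 11.5 and 28.0 CPM in Saline 1 to 4. RBC 2 thus held the most of both, while RBC 1 and RBC 3 lay within the saline range for neutrophil markers. S100a9 made up much of it, with 11, 294 and 18 counts in RBC 1 to 3, against 36, 5, 11 and 19 in Saline 1 to 4, and Ly6g, which defines mouse neutrophils, had 0 counts in every library. Csf3r, the receptor for the neutrophil growth factor, had 21, 109 and 19 counts, against 11, 10, 10 and 11. By CPM, S100a8, Retnlg and Mmp8 were also highest in RBC 2. The other neutrophil markers did not follow, as Mpo, Elane, Ngp and Camp were highest in Saline 1, Ltf in Saline 4 and Prtn3 in RBC 3. Of the monocyte markers Ccr2 had 12, 125 and 29 counts, against 14, 10, 27 and 11, while Ly6c2 had at most 2 counts in a library. The summed CPM of the 7 monocyte markers, 723, 919 and 701 against 812, 776, 753 and 700, was mostly Ace, which had at least 2958 counts in every library. The part of these cells in the excess of RBC 2 was not tested.

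Of the lymphoid markers several defining genes were at 0, and Lck and Ighm carried most of the sums. T and NK cell markers summed to 7.79, 8.02 and 7.79 CPM in RBC 1 to 3, against 7.24, 9.95, 7.42 and 6.49 CPM in Saline 1 to 4, and Cd8a, Ncr1 and Nkg7 had 0 counts. B cell markers summed to 5.02, 11 and 6.88 CPM, against 5.02, 5.62, 4.07 and 4.4 CPM, with RBC 2 the highest, and Ms4a1 had 0 counts. Platelet markers summed to 17.1, 19.1 and 24.4 CPM, against 18.5, 22.6, 18.7 and 21.8 CPM, and mast cell markers, nearly all Kit, to between 188 and 276 CPM in the RBC group and between 207 and 247 CPM in the saline group. Erythroid markers lay between 2250 and 2850 CPM in the RBC group and between 2210 and 3280 CPM in the saline group. Markers of the epithelium, which define the tissue, lay between 18100 and 19600 CPM in the RBC group and between 18300 and 23600 CPM in the saline group, those of endothelium between 745 and 1030 CPM and between 879 and 892 CPM, and those of stromal fibroblasts between 1360 and 2610 CPM and between 1600 and 1750 CPM.

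**Figure D4:**
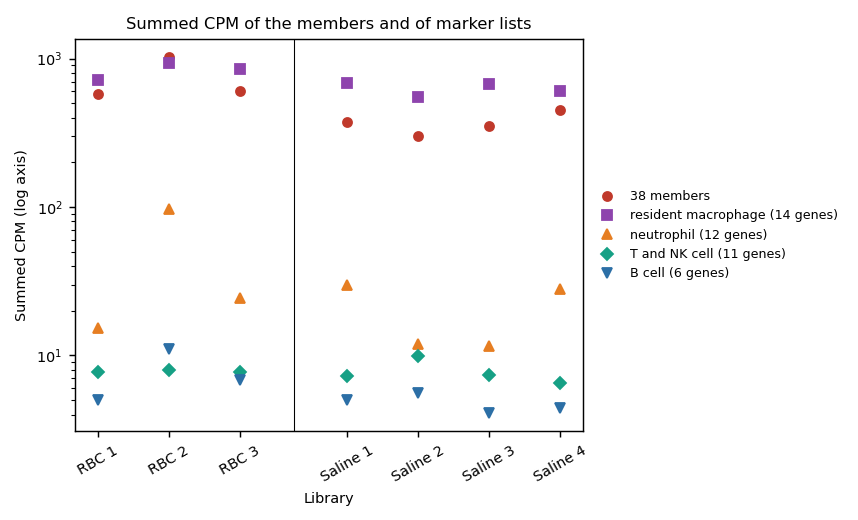
Summed CPM (log axis) per library of the 38 members and of marker lists for resident macrophages, neutrophils, T and NK cells, and B cells, in the 3 RBC and 4 saline libraries. The members lie higher in the RBC libraries, neutrophil markers stand out in RBC 2 at 97.6 CPM, and T and NK cell markers stay between 6.49 and 9.95 CPM in all 7 libraries.

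Levels were last set against Csf1r, the receptor on which tissue macrophages depend, which was chosen for this after values were seen. Csf1r itself had 578, 701 and 586 counts in RBC 1 to 3, against 476, 353, 510 and 298 in Saline 1 to 4 (log2 fold change 0.56 ± 0.14, SE, edgeR adjusted p = 0.163). Counts per 100 counts of Csf1r cancel library size. As Csf1r was itself higher in the RBC group, an unchanged gene falls relative to it. A higher mean marks a gene that rose by more than Csf1r. The measure thus restates the fold changes above and is no separate support. By this measure 37 of the 38 members still had a higher mean in the RBC group, the exception being Lyn with 37.9 ± 10.2 in the RBC group and 38.1 ± 5.03 in the saline group (SD, n = 3 and n = 4). Of the 35 members tested 34 had a higher mean, as did 4.21% of all genes tested. Without RBC 2 it was 31 of 35, where 4.95% of all genes were higher, since Cyba, Ncf1 and Was then had a lower mean in the RBC group as well. For 4 members tested (Adgre1, Dock2, Hcls1 and Fcgr1) every RBC library stayed above every saline library, as it did for 0.491% of all genes tested. The same held for Cd48, which was below the count filter. Adgre1 had 30.3, 29.2 and 26.3 per 100 in RBC 1 to 3, against 16.6, 21.8, 19.6 and 21.5 in Saline 1 to 4. Fcgr1 had 14.9, 20.5 and 10.9, against 8.19, 7.08, 8.04 and 10.1, and Dock2 had 11.9, 14 and 9.73, against 8.61, 8.50, 7.06 and 8.05. Hcls1 did so by a narrow margin, with RBC 3 and Saline 1 both at 11.6.

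The C1q chains varied in how near they stayed to Csf1r, with a ratio of group means of 1.13 for C1qa, 1.37 for C1qb and 1.16 for C1qc. C1qa had 42.9 ± 3.02 per 100 in the RBC group and 38 ± 2.93 in the saline group, and C1qc had 40.8 ± 7.08 and 35.1 ± 4.29 (SD, n = 3 and n = 4). C1qa had 39.8 in RBC 3 and 40.6 in Saline 3, so its groups overlapped. Itgam had 23.8 ± 16 in the RBC group and 11.1 ± 3.46 in the saline group, with RBC 3 at 9.22. Cybb had 18.3 ± 9.56 and 9.79 ± 2.23, with Saline 4 at 13.1 above RBC 3 at 11.6. Among the members tested the ratio of group means ran from 0.995 for Lyn to 2.14 for Itgam. With 3 libraries against 4 the smallest two-sided p of an exact permutation test of such a ratio is 0.0571, so none was run.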

How the data were processed

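The deposited table holds raw counts of reads per gene for 7 libraries, made by the authors with directional poly(A) libraries, per the labels' protocols, and with cutadapt 2.5, STAR 2.6.1b and featureCounts 2.0.6 on GRCm39, per the submitters' processing notes. The sources used here do not give its strand and multi-mapping settings or annotation release. Among the members only Lyn and Ncf1 share over 200 exon bases with another gene, on the opposite strand (1079 and 220 bases). Another 6 genes are broken over 2 lines and were left out, and the continuation lines, which name no gene, hold 0.107% of counts. Exon length, another column of the deposited table, was used to give CPM per kilobase.

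Counts were tested with edgeR 4.0.16 under R 4.3.3 (quasi-likelihood F test, robust, TMM, filterByExpr, no block, two-sided, Benjamini-Hochberg over 14869 genes, threshold 0.05). Log2 fold changes are RBC over Saline, with standard errors from the F statistic. The common biological coefficient of variation was 13.7%, and a count of 3 was 0.358 to 0.683 CPM. The alternatives were DESeq2 1.42.0, limma-voom (limma 3.58.1), other normalizations and count filters, a replicate block and left-out libraries. In simulated counts of 14869 genes, 200 were changed, all picked at an average of 50 or more counts. Of the 35 members tested, 27 reach that average. In the simulation edgeR recovered 62.7% of genes changed 1.5-fold and 85.1% of those changed 2-fold, and 18 of its 182 calls were unchanged genes. These shares were not shown to hold for members with fewer counts, or where 1 library stands apart as RBC 2 does. The members and lists were chosen with earlier results of these data known. Per-library values were given for members past the threshold and, per role, for the 2 most abundant members per length and the one with the largest log2 fold change relative to its error. Of each pathway list the 2 genes with the lowest p and the 2 most abundant per length are named, except for items that are not reported here. Further genes were chosen after their values were seen. Fcrls, 1 gene of the inhibitory list, was not matched in the table. Figures were drawn with matplotlib 3.10.9.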

Additional observations from a re-analysis of the deposited data

Results flagged for a closer look

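In the saline group 2 members had 1 library set apart from the other 3 by the size of the gap relative to the whole range. Cd14 had 8.80 CPM in Saline 4, where the other saline libraries had 2.25 to 2.96 CPM. Spi1 had 5.91 CPM in Saline 1, where the others had 3.69 to 3.94 CPM. Chance gives such a gap in about 1 in 20 groups, and the 38 members were examined.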

How the results depend on the processing

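The median log2 fold change of the members tested (1.04) ran from 0.74 (without RBC 2) to 1.21 (without RBC 1) over the alternatives run. All members tested were higher in each of them. Each shift was smaller than the pooled SD of the library medians (0.33). RBC 2 itself widened that SD, with a median of 1.48, against 0.72 in RBC 1 and 0.77 in RBC 3. The SD is thus no fair limit for the fit without RBC 2. The number of members past the threshold was 1 with edgeR, 18 with DESeq2, 15 with no count filter, 3 with limma-voom and sample weights, 3 without RBC 2 and Saline 4, 0 with limma-voom and 0 with a replicate block, and ran from 0 to 16 over the fits that left out 1 library. The 16 came without RBC 3, in a fit that called 1.49% of genes as higher. Over all genes the number past the threshold was 9 with edgeR, 280 with DESeq2, 136 with no count filter, 48 with limma-voom and sample weights, 40 without RBC 2 and Saline 4, 16 with no robust estimation and 2 with a replicate block, and ran from 1 to 283 over the fits that left out 1 library. These numbers over all genes count both directions. The fit with no count filter tested 26065 genes, and that without RBC 2 and Saline 4 tested 14979. The cause of the shifts between fits was not tested. Adgre1 had an edgeR adjusted p of 0.134 with the replicate block and a limma-voom adjusted p of 0.0501, with a range over all alternatives from 3.19e-05 (DESeq2) to 0.172 (without Saline 2). Deviations from the group means correlated at -0.01, -0.17 and -0.17 between libraries that share the replicate numbers 1, 2 and 3, and at -0.21 to 0.26 between the others. This gave no sign of pairing by replicate number, but so few libraries cannot exclude it. Depth limits the members below the count filter most (Fcgr4, Cd52 and Cd48), which had 4 to 51 counts in RBC libraries and 2 to 7 counts in saline libraries. Without RBC 2, an alternative chosen after seeing the data for the counts set against Csf1r, 31 of 35 members tested had a higher mean in the RBC group, against 34 with all libraries.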
